A study of Mus musculus with 20 samples.

Results

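Between days 7-8 and days 10-12 of reprogramming with native Nanog and Oct4, 1165 genomic regions were gained and 11868 were lost, of 99008 regions that held an ATAC-seq peak in at least 1 of the 4 libraries compared and of 335858 regions in the whole series. A region was gained if it had no peak on day 7 and day 8 and a peak on both day 10 and day 12, and lost if the reverse held. Gained regions were thus 1.18% of the regions compared and lost regions 12.0%. These shares are set by the rule and are given as a description, and what follows concerns measurements the rule did not use, which are the state of the regions in fibroblasts, in embryonic stem cells (ESCs) and in other libraries, their position, their nearest genes and their sequence.

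ATAC-seq maps accessible chromatin through the cuts of the Tn5 transposase. The cells were mouse embryonic fibroblasts (MEFs) from crosses of OG2 mice, which carry a GFP reporter of Oct4, with a second strain, at midgestation. Both paths carried retroviral Oct4, together with Nanog (Nanog+Oct4) or with NanogN70 (NanogN70+Oct4, called NanogBiD in the study), in which the BRG1-binding N-terminal stretch of the BAF subunit SS18 is joined to NANOG. Each path had 1 library for each of 8 days from day 0, the end of infection, to day 12, beside 1 library of untreated MEFs and 3 of ESCs from OG2 mice, which the titles name as ESCs although another label field names them as MEFs. In the study's protocol the medium was changed to N2B27 with LIF and inhibitors of GSK3 and MEK after 7 days or at another chosen time. The labels do not give the medium of each library. If the change fell at day 7, it lay within the early side, and time and medium cannot be fully told apart. Without the day 7 library, 1792 regions were gained and 24358 lost. The libraries are pools of infected cells, of which only a part becomes reprogrammed, and fewer open cells cannot be told apart from less open chromatin per cell.

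NANOG and OCT4 are homeodomain and POU factors that hold up the pluripotent state together with SOX2, an HMG-box factor. Fibroblast enhancers are bound by AP-1, the dimer of FOS and JUN proteins, and by TEAD factors, and close when the fibroblast program is given up. SOX factors bind a short element in the minor groove and act in pluripotent cells and, as SOX1, SOX2 and SOX3, in neural progenitors.

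The sequences at the summits show the 2 elements whose shares differed most, in percentage points, between gained and lost regions, SOX and AP-1, which are counted further on. Shown are 81 bases around the summit, on the plus strand of GRCm38 (mm10), with capitals for SOX (ACAATGG or ACAAAGG), TEAD (ACATTCC) or AP-1 (TGANTCA) matches on either strand within 25 bases of the summit. The first is from the gained region with the highest score, inside an intron of Hhipl1 and nearest the start of Cyp46a1, and the next 6 are from the highest-scoring other gained regions with a SOX match whose window lay outside exons, nearest Rad23b, Crygs, Adamts16, Inpp5a, Basp1 and Pax7. The following 2 lie near the neural regulators Pax6 and Pou3f2 and hold none of the matches searched, and the last 2 are lost regions with an AP-1 match near Tph1 and Cpne4. All but the first were chosen after their values were seen.
Cyp46a1, gained, chr12:108320613-108320693: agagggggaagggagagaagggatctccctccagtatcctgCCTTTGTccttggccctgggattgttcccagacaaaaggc
Rad23b, gained, chr4:55294353-55294433: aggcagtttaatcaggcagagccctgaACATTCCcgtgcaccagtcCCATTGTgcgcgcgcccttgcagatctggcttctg
Crygs, gained, chr16:22800536-22800616: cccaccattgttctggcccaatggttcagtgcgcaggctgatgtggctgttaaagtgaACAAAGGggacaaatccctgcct
Adamts16, gained, chr13:71158624-71158704: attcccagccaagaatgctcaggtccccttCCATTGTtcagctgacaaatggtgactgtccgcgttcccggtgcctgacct
Inpp5a, gained, chr7:139528808-139528888: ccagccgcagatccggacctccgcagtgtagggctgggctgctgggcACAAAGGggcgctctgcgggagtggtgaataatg
Basp1, gained, chr15:24567113-24567193: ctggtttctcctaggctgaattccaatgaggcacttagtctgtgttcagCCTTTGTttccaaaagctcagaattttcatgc
Pax7, gained, chr4:139821645-139821725: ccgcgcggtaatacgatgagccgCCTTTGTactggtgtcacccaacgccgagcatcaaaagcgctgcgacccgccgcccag
Pax6, gained, chr2:105689936-105690016: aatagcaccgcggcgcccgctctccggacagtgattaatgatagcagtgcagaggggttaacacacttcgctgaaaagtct
Pou3f2, gained, chr4:22495009-22495089: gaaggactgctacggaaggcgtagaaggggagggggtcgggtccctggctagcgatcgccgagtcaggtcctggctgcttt
Tph1, lost, chr7:46673259-46673339: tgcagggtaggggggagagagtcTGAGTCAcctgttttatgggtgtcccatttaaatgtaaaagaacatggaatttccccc
Cpne4, lost, chr9:104612869-104612949: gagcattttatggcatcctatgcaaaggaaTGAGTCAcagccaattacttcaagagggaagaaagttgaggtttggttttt

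The 4 libraries differed in how many peaks they gave, which bears on every count of lost regions. Day 7 had 84526 peaks, day 8 had 76740, day 10 had 50716 and day 12 had 48843. Over the 14217 regions that were open throughout the 20 libraries, the median summit pileup (the number of reads over the summit, not scaled to depth) was 38, 32, 23 and 24, and of the 31355 regions open in MEFs and all 3 ESC libraries 83.7%, 83.2%, 70.9% and 71.9% had a peak. Read depth is unknown, so a region without a peak may have been open below the limit of its library. With equal numbers of top-scoring peaks from every library, 3217 regions were lost and 1969 gained, and the ratio of lost to gained regions changed from 10.2 to 1.63. Each day is 1 library, and the pairs of days are successive samples of 1 time course rather than replicates of a condition. As a check of the labels, the highest summit in Nanog exons, which the vector carries, held 30, 21, 17 and 9 reads on days 7, 8, 10 and 12 and no peak in MEFs or ESCs. With NanogN70 it held 20, 18 and 8 reads on days 7, 8 and 10 and no peak on day 12. The exons of Pou5f1, the gene of Oct4, held 67, 78, 45 and 48 reads on these days of the Nanog path but also 48 in MEFs, and no peak in ESCs. On these days this gene does not separate the infected cells from the MEF library, unlike on day 0 (730 reads). Of 35 core and naive pluripotency genes, 34 to 35 had a peak within 2 kb of a start site in the ESC libraries and 23 in MEFs, while 22 to 26 of 33 fibroblast matrix genes had one in ESCs and 31 in MEFs.

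Gained regions had lower scores than all compared regions open on day 10 and higher ones on day 12. Their MACS score, which is the negative log10 of the p-value times 10 and starts at 50, had a median of 68.7 on day 10 and 178 on day 12, and their pileup a median of 6 and 11, against scores of 116 and 123 and a pileup of 9 on both days over all compared regions open there. Lost regions had a median score of 96.2 on day 7 and 82.3 on day 8, with pileups of 8 and 7. Both peaks scored at least 100 in 199 gained regions (17.1%) and in 2432 lost regions (20.5%). Just outside the rule lay 6930 regions open only on day 12 of the 4 days and 2089 open only on day 10.

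Most gained regions had not been open earlier in the same path. Of the 1165, 246 (21.1%) had a peak in any Nanog+Oct4 library from day 0 to day 5, against 69.2% of all regions compared, and the share open in single libraries was 9.1% on day 0, 4.89% on day 1, 4.21% on day 3 and 12.7% on day 5. Of the lost regions, 9679 (81.6%) had a peak in at least 1 of these libraries, with 28.6% open on day 0, 38.9% on day 1, 47.1% on day 3 and 65.6% on day 5. Over all regions compared the same 4 libraries had a peak in 37.7%, 41.1%, 44.8% and 57.0%. The lost regions were thus mostly present before day 7, and 519 of them (4.37%) had a peak in no library outside days 7 to 12 of the Nanog path, against 15 gained regions (1.29%) and 10.2% of all regions compared.

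**Figure D1:**
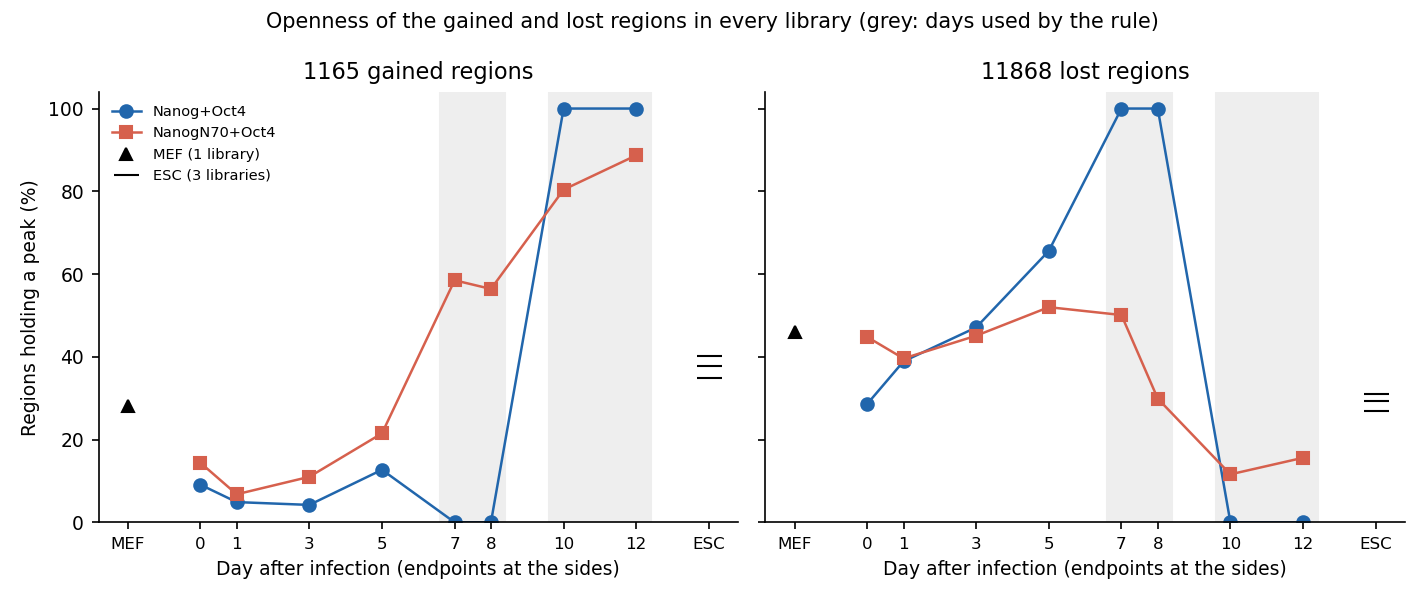
Share of the 1165 gained regions (left) and the 11868 lost regions (right) that hold a peak in each library, against the day, with the MEF library (triangle) and the 3 ESC libraries (bars) at the sides; the grey bands are the days the rule used, where the Nanog+Oct4 shares are 0% or 100% by definition. The gained regions reach 80.4% and 88.7% in NanogN70+Oct4 on days 10 and 12 and already 58.5% and 56.4% on days 7 and 8, and the lost regions go to 11.6% and 15.6%.

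In NanogN70+Oct4, which the rule did not use, the gained regions were open in 58.5% of cases on day 7, 56.4% on day 8, 80.4% on day 10 and 88.7% on day 12. The mean of the later days was 27.1 percentage points above that of the earlier ones (84.5% against 57.4%), and the groups did not overlap. With 2 libraries a side the two-sided exact permutation test gave p = 0.333, the smallest value it can give. Of the gained regions, 915 (78.5%, Clopper-Pearson 95% interval 76.1% to 80.9%) had a peak in NanogN70+Oct4 on both day 10 and day 12, against 30.7% of all regions compared and 80.6% of the 25548 regions open in all 4 Nanog+Oct4 libraries. Of the regions just outside the rule, 39.7% of those open only on day 12 and 4.31% of those open only on day 10 had peaks in both NanogN70+Oct4 libraries. All intervals of this kind cover counting error only. Without the Nanog day 10 library the share was 45.3% of 8095 gained regions, and without that of day 12 it was 30.9% of 3254, where the later minus early difference was 7.67 points (13.7 without day 8).

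By the rule, gained regions had no Nanog+Oct4 peak on days 7 and 8. In NanogN70+Oct4, 520 of them (44.6%) had a peak on both of these days, against 37.0% of all regions compared, and 818 (70.2%) had one on at least 1 of them, against 55.9%. The first NanogN70+Oct4 library with a peak was that of day 7 for 394 regions (33.8%), that of day 8 for 108, that of day 10 for 185 (15.9%), that of day 12 for 54 and an earlier one for 397 (34.1%), while 27 regions (2.32%) had no peak on any day of that path. The same rule applied to NanogN70+Oct4 gained 3066 of 90498 regions (3.39%) and lost 9529 (10.5%), and it gained 195 of the regions gained with Nanog, which are 16.7% of the Nanog list and 6.36% of the NanogN70 list. Of the regions gained with Nanog, 12 (1.03%) were lost with NanogN70. Over all regions compared in the Nanog path, 2.05% were gained and 6.68% lost with NanogN70 by the rule.

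Lost regions were open in NanogN70+Oct4 in 50.1% of cases on day 7, 29.9% on day 8, 11.6% on day 10 and 15.6% on day 12. The later mean was lower by 26.4 percentage points (difference -26.4, 13.6% against 40%), again without overlap and with p = 0.333 in the exact permutation test, and it was -16.4 without the NanogN70 library of day 7. Both paths lost 1667 regions by the same rule, which are 14% of the Nanog list and 17.5% of the NanogN70 list. Of all regions compared in the Nanog path, 6.68% were lost with NanogN70 by this rule. Among all regions compared, the 4 NanogN70+Oct4 libraries had peaks in 52.0%, 40.9%, 34.0% and 38.9%.

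Gained regions were more often open in ESCs only, and less often in MEFs only, than the lost regions, and the largest group was open in neither. ESC-only regions, open in at least 2 ESC libraries and not in MEFs, numbered 281 (24.1%, 21.7% to 26.7%) of the gained regions, against 1149 (9.68%) of the lost regions and 8.24% of all regions compared. MEF-only regions, open in MEFs and in none of the ESC libraries, numbered 138 (11.8%, 10.0% to 13.8%) of the gained and 2779 (23.4%) of the lost regions, against 18.8% of all compared. A further 188 gained regions (16.1%) were open in MEFs and at least 1 ESC library, and 67 (5.75%) in 1 ESC library alone. The remaining 491 (42.1%) were open in neither, close to the 41.4% of the lost regions and above the 36.5% of all regions compared. Regions are not independent replicates, and these shares are descriptions.

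**Figure D2:**
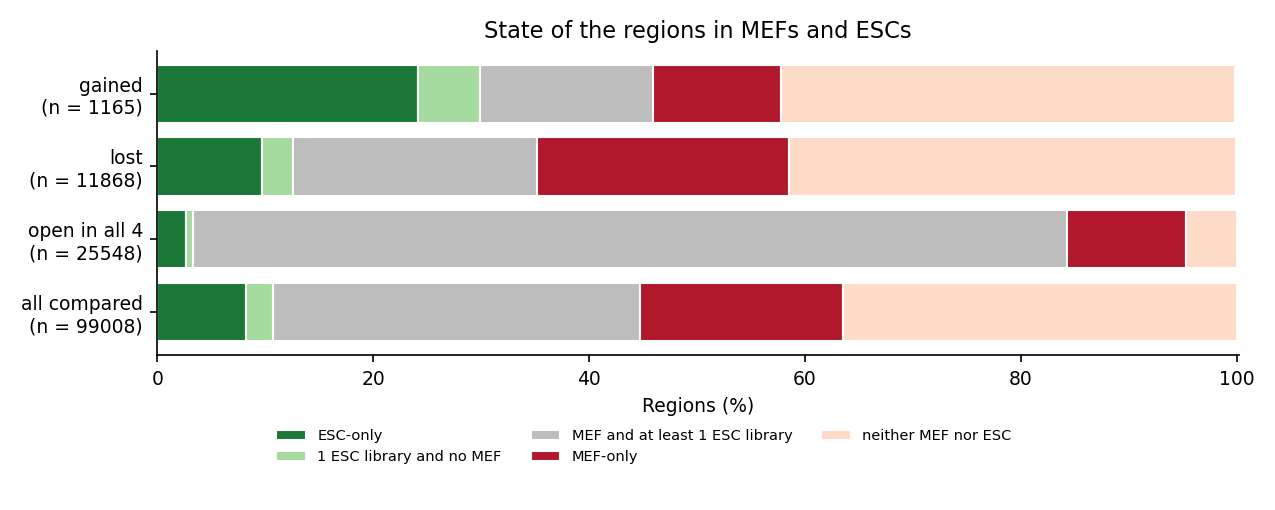
State in MEFs and ESCs of the gained, lost, constantly open and all compared regions, as stacked shares of each set in percent; dark green is ESC-only, light green 1 ESC library without MEF, grey MEF and at least 1 ESC library, red MEF-only and pale orange neither. Gained regions have 24.1% in the ESC-only class against 9.68% of lost regions, and both sets have over 40% of regions open in neither.

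The 3 ESC libraries gave similar values for the gained regions, with 37.9%, 40.3% and 34.8% open (37.7% ± 2.75, SD, n = 3), and 28.0% were open in MEFs. For the lost regions the ESC libraries had 29.3%, 31.0% and 26.8% (29.1% ± 2.1, SD, n = 3) and MEFs 46.0%. Among all regions compared, 39.8% ± 1.64 (SD, n = 3) were open in ESCs and 52.8% in MEFs. These shares move with the setting, since gained regions open in at least 2 ESC libraries went from 37.0% to 23.7% without the day 12 library, and lost regions open in MEFs from 46.0% to 21.9% with equal peak numbers and 28.9% without the day 8 library. Of the 491 gained regions open in neither endpoint, 398 had a peak in NanogN70+Oct4 on both day 10 and day 12, and the 4 NanogN70 libraries covered 46.4%, 47.5%, 82.7% and 92.7% of them. The 281 ESC-only gained regions were covered to 75.8%, 74.0%, 90% and 94.7%, and the 138 MEF-only gained regions to 48.6%, 45.7%, 58.7% and 69.6%. In all, 381 gained regions (32.7%) had a peak in no library outside days 7 to 12 of the 2 paths, compared with 627 lost regions (5.28%) and 14% of all regions compared.

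Over the whole set of 55446 ESC-only regions, the share with a peak, uncorrected for peak yield, was not greater on the later days. The shares with a peak were 9.08%, 7.5%, 3.73% and 5.87% on days 7, 8, 10 and 12, so that the later mean was lower by 3.49 points (difference -3.49, exact permutation p = 0.333). Of the 74608 MEF-only regions 15.3%, 19.5%, 11.2% and 6.52% were open (difference -8.58, exact permutation p = 0.333). Regions open in MEFs and all ESC libraries differed by -12.1 points between the same days. When that difference was subtracted library by library, the ESC-only difference became 8.58 and the MEF-only difference 3.49. With equal numbers of top-scoring peaks the ESC-only difference was 1.3 and the MEF-only difference -3.41. The direction thus rests on how the peak yield of the libraries is treated. It changed for ESC-only regions in both settings and for MEF-only regions after the subtraction. With NanogN70 the difference at ESC-only regions was -1.24 points, 2.25 points above that with Nanog, and exchange of the paths within days gave an exact permutation p = 0.75, a test that cannot go below 0.125 with 16 exchanges.

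Of the 10 gained regions with the highest scores, 9 were open in NanogN70+Oct4 on all of days 7 to 12, against 496 (42.6%) of all 1165 gained regions. Also 9 of the 10 lay farther than 2 kb from any annotated start site. The first lies at chr12:108320171-108321225, inside introns of Hhipl1 and 4930478K11Rik and 13.7 kb from the start of Cyp46a1, which encodes the cholesterol 24-hydroxylase of neurons. Its pileup was 13 and 35 on days 10 and 12, with no peak on the 6 earlier days or in MEFs, 35, 45 and 31 in the ESC libraries, and 24, 36, 62 and 97 with NanogN70 on days 7, 8, 10 and 12. This region was thus open in ESCs and in every NanogN70 library from day 7. The second, at chr1:20301806-20303323 in an intron of Pkhd1, the fibrocystin gene of kidney cilia, had 14 and 45 reads on days 10 and 12 and 21, 20, 50 and 57 with NanogN70. It had no peak in MEFs or ESCs, unlike the first.

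The next regions are described with their nearest genes, which need not be the genes they act on. A region 8.27 kb from Wnt1, a secreted ligand made in the dorsal neural tube, at chr15:98797562-98798686, had 11 and 41 reads on days 10 and 12, a peak in 1 ESC library, and 21, 23, 58 and 85 reads with NanogN70. One in an intron of Nova2, a neuronal splicing regulator, at chr7:18949520-18950404, had 13 and 31 reads with Nanog and 9, 15, 38 and 80 with NanogN70, and none in MEFs or ESCs. A region at the start of the noncoding Gm5091, 120.0 kb from the Notch ligand gene Dll1, at chr17:15247673-15248692, had 11 and 29 reads, 52, 60 and 40 in ESCs, and 34, 18, 49 and 69 with NanogN70. These 3 regions had no peak in Nanog+Oct4 before day 10. The other 5 of the first 10 were nearest Hdgfl1, Slc35b3, Nufip1, Epha5 and Tmem161b, at 144.0 to 822.0 kb from a start site, with 9 to 16 reads on day 10 and 17 to 38 on day 12. The one near Epha5, which encodes an ephrin receptor of neurons, was the exception among the 10 in having no NanogN70 peak on days 7 and 8 (7 and 18 reads on days 10 and 12), and it had 5 reads in 1 ESC library.

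**Figure D3:**
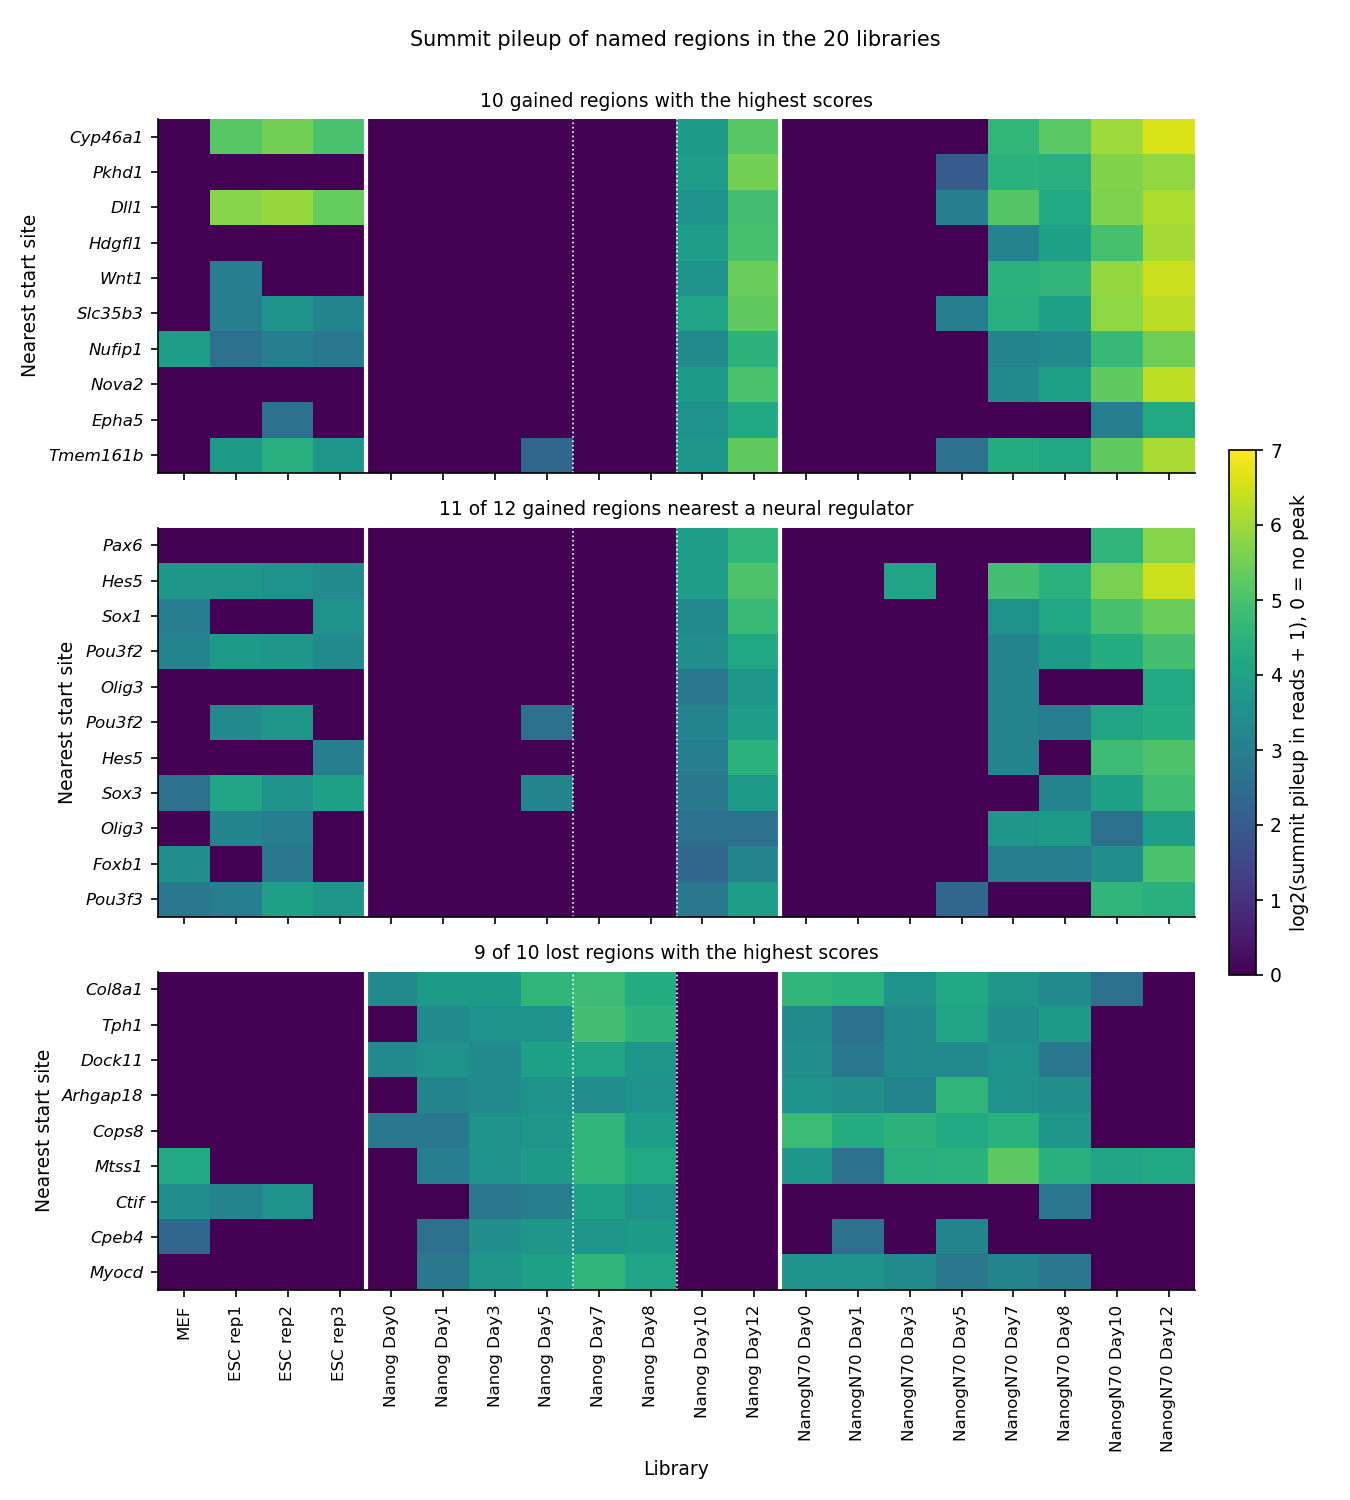
Summit pileup, as log2 of reads plus 1, in the 20 libraries for the 10 gained regions with the highest scores (top), 11 of the 12 gained regions nearest a neural regulator (middle) and 9 of the 10 lost regions with the highest scores (bottom), named by the nearest protein-coding start site; darkest is no peak, and dotted lines enclose days 7 and 8 of the Nanog path. In the top block 9 of 10 regions already have peaks with NanogN70 on days 7 and 8, against 44.6% of all gained regions.

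Neural regulators had the highest share of gained regions among the 18 gene lists, followed by skeletal muscle markers (4 of 36, 11.1%) and germline genes (1 of 10, 10.0%), which rest on fewer regions. A region within 50 kb of a protein-coding start site was given to its nearest gene, which placed 744 gained regions (63.9%) at 675 of 21911 genes (3.08%) and 8005 lost regions (67.5%) at 5441 genes (24.8%). Of 18 neural regulators, 9 had a gained region, and 12 of their 100 compared regions (12.0%) were gained, against 1.04% of the compared regions of all genes. Lost regions were 4 of the 100 (4.0%), against 11.2% of all. The list held 4 to 35 gained regions at 4 to 14 genes under the other settings and without single libraries, with a share of 7.69% of its compared regions at a minimum score of 100 (4 regions) to 36.1% without the day 10 library (35 regions). The share over all genes under the same settings was 0.582% to 7.14%. The lists were chosen with earlier results of these data known, so the count is a description.

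The strongest of the 12 was at Pax6, a paired-box factor of neuroectoderm and eye, at chr2:105689438-105690664 in the promoter class (within 2 kb of an annotated start, with its centre 2.43 kb from the nearest protein-coding one). It held 14 and 23 reads on days 10 and 12 of the Nanog path, 23 and 52 reads on the same days of the NanogN70 path, and no peak in the other 16 libraries. No peak was thus called there in MEFs, in ESCs or in either path before day 10. The region at the start of Hes5, a Notch-responsive repressor of neural progenitors, at chr4:154960338-154961742, had 14 and 32 reads with Nanog and 29, 21, 47 and 87 with NanogN70 from day 7 (and 16 on day 3), beside 12 in MEFs and 12, 11 and 9 in ESCs. Both regions had no peak in the Nanog path before day 10 and differed in the endpoints.

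Others of the 12 lay near Sox1, Sox3, Pou3f2, Pou3f3, Olig3, Foxb1 and again Hes5, which encode SOX, POU, basic helix-loop-helix and forkhead factors of neural progenitors. Near Sox1 the region, overlapping an exon of the noncoding Sox1ot, had 9 and 26 reads on days 10 and 12, and at the start of Sox3 there were 6 and 13. Pou3f2, Olig3 and Hes5 each had 2 gained regions. Of the 12 regions 11 had peaks in NanogN70+Oct4 on both day 10 and day 12, 9 on day 7 and 8 on day 8. In the endpoints 7 were open in at least 2 ESC libraries, 6 in MEFs and 2 in neither. In the promoter class were 3 of the 12, beside 20.1% of all gained regions. Of the 18 neural regulators, 13, 13, 15 and 16 had a peak within 2 kb of a start site in Nanog+Oct4 on days 7, 8, 10 and 12. The counts were 15, 15, 17 and 18 in NanogN70+Oct4 on the same days, 17 in each ESC library and 13 in MEFs.

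Pluripotency genes held few of the gained regions. Of 35 core and naive pluripotency genes, 1 had a gained region and 11 had lost regions (2 and 14 of 127 compared regions, 1.57% and 11%), which are near the shares over all genes. The gene was Sox2, with 2 gained regions within 50 kb and 4 at any distance, from 16 to 438.0 kb. The strongest of the near ones, 41.8 kb from the start at chr3:34692023-34692429, had 5 and 11 reads on days 10 and 12 and 10, 0, 11 and 25 with NanogN70, where 0 means no peak, and it was also open in MEFs and 1 ESC library. Lost regions lay near Klf5, Tdgf1, Fbxo15, Esrrb, Tfcp2l1, Zfp42 and others. At the start of Tdgf1, the Nodal co-receptor Cripto, the region had 9 reads on each of days 7 and 8, 5 in MEFs, 16 and 16 in 2 ESC libraries and 11 and 17 with NanogN70 on days 7 and 8, but no peak in either path on days 10 and 12. Pluripotency genes with a peak near a start site numbered 25, 24, 20 and 22 of 35 on the 4 days with Nanog and 27, 23, 22 and 31 with NanogN70.

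Lost regions at fibroblast genes are given by list. Of 33 fibroblast matrix and cytoskeleton genes 20 had a lost region (60.6%, against 24.8% of all genes), and 36 of their 212 compared regions (17.0%) were lost, against 11.2% over all genes. At mesenchymal transcription factors the lost share was 10.4% (17 of 164) and in the TGF-beta pathway 11.3% (14 of 124), both close to that over all genes. By genes, 11 of 23 (47.8%) and 9 of 17 (52.9%) had a lost region. Such counts of genes also depend on how many regions a gene has, and most of the other lists were above 24.8% too, among them cell cycle barrier genes (44.4%) and leukocyte markers (38.9%). In the matrix list Postn, which encodes the matrix protein periostin, had 5, Col3a1 had 4, and Col5a1 and Col6a3 had 3 each. Near Loxl1, an elastin crosslinking enzyme, a region had 16 and 15 reads on days 7 and 8, 42 in MEFs and none in ESCs or on days 10 and 12. A region near Thbs2 had 11 and 6 reads and 34 in MEFs. The number of genes of the list with a peak near a start site was 30, 31, 28 and 23. Gained regions lay at 2 of the 33 genes (6.06%, against 3.08% of all genes) and were 2 of the 212 (0.943%, against 1.04%). The one in an intron of Fn1, the fibronectin gene, was absent from MEFs and had 6 and 14 reads on days 10 and 12 and 20 and 37 with NanogN70.

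**Figure D4:**
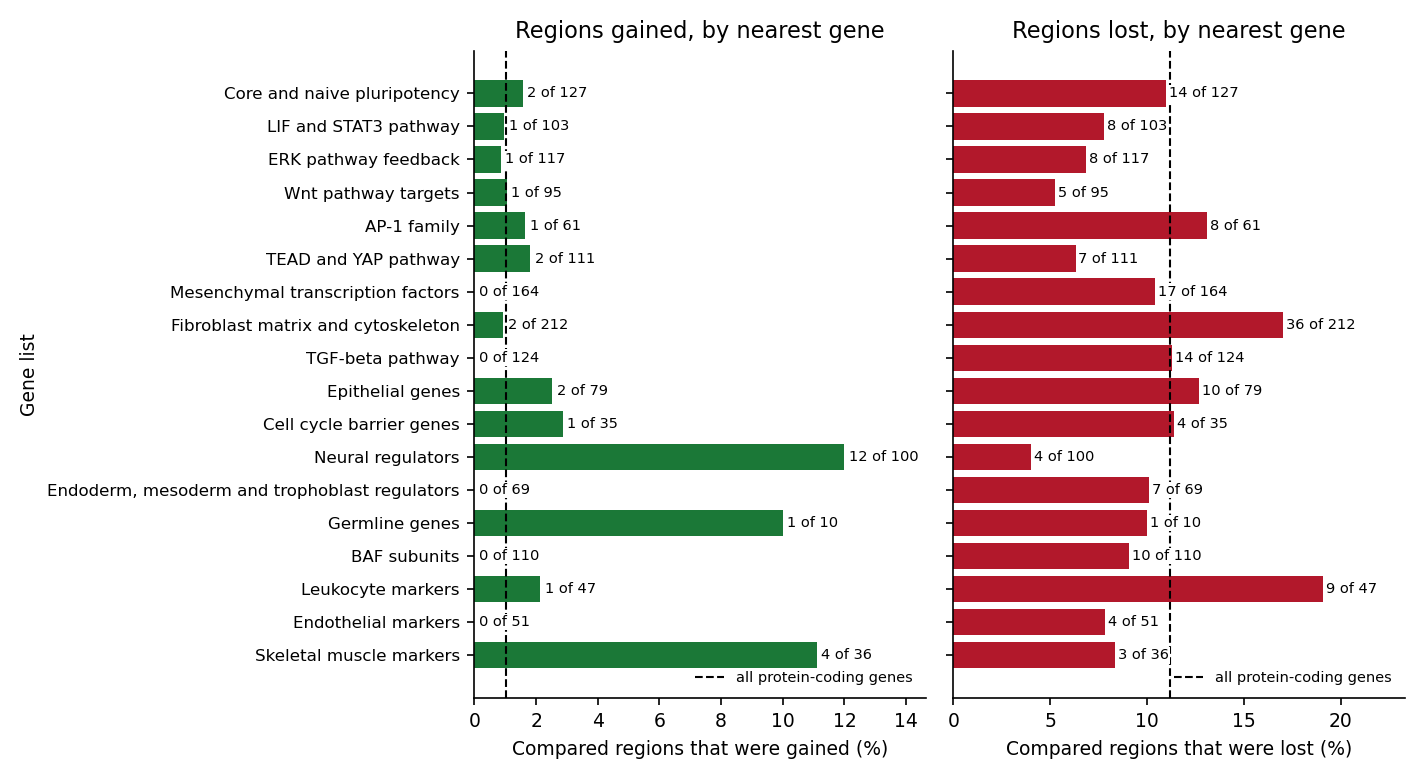
Share of the compared regions nearest the genes of each list that were gained (left) or lost (right), in percent, with counts beside the bars and the share over all protein-coding genes as a dashed line (1.04% gained, 11.2% lost). Neural regulators have 12 of 100 regions gained and 4 of 100 lost, and the fibroblast matrix list has 36 of 212 lost.

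The remaining lists had small counts, beside 1.04% of compared regions gained over all genes. Counts of 0 to 2 are too small to set a list apart from that share. Gained regions were 0 of 164 at mesenchymal transcription factors, 0 of 124 in the TGF-beta pathway, 0 of 69 at endoderm, mesoderm and trophoblast regulators, 0 of 110 at BAF subunits and 0 of 51 at endothelial markers. They were 1 of 103 in the LIF and STAT3 pathway, 1 of 117 at ERK feedback genes, 1 of 95 at Wnt targets, 1 of 61 in the AP-1 family, 2 of 111 in the TEAD and YAP pathway, 2 of 79 at epithelial genes, 1 of 35 at cell cycle barrier genes, 1 of 10 at germline genes and 1 of 47 at leukocyte markers. Skeletal muscle markers had 4 of 36, all at Pax3 and Pax7, which mark muscle progenitors and also the dorsal neural tube. The region in an intron of Pax3 had 6 and 19 reads on days 10 and 12. Lost shares ranged from 5.26% at Wnt targets to 19.1% (9 of 47) at leukocyte markers among these lists. Of the 18 leukocyte markers 6, 4, 4 and 4 had a peak near a start site on the 4 days, and the part of other cells in these libraries was not tested.

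By nearest start site at any distance, Nav2 had the most gained regions, 5 of 74 compared regions, all inside the gene. Next were 7530416G11Rik (of 13), Glra1 (of 13), Rapgef5 (of 43), Rgma (of 39), Sox2 (of 50) and Tmem161b (of 16) with 4 each. The 4 regions nearest Rapgef5 lay inside Ptprn2, 259.0 to 469.0 kb from the start of Rapgef5. Those nearest Rgma lay 178.0 to 412.0 kb from its start, and those nearest Tmem161b 148.0 to 320.0 kb. The 5 regions of Nav2 had 5 to 8 reads on day 10 and 7 to 17 on day 12, and none had a peak in MEFs or ESCs. Of the 4 regions nearest Glra1, which encodes a glycine receptor subunit, 2 lay at or in the gene and the others 77.0 and 183.0 kb from its start. Of the 4, 3 were open in all ESC libraries. Genes with the most lost regions were Tenm4 with 18 of 88 compared regions, Rbfox1 with 17 of 97 and Ptprm with 14 of 61. They were followed by 5530401A14Rik with 13 of 38, all 13 overlapping Asic2, and Zfhx3 with 13 of 88. Of all regions compared 1.18% were gained and 12.0% lost, and genes with many regions can rank high by number alone. Outside the gene lists, whether genes of neurons were more frequent near gained than near lost regions was not tested.

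Among the 10 lost regions with the highest scores, 6 had no peak in MEFs or ESCs. The region with the highest score lay at chr16:57765426-57766025, 11 kb from the start of Col8a1, which encodes a short-chain collagen, and its pileup was 9, 13, 13, 23, 27 and 19 from day 0 to day 8 and then no peak. With NanogN70 it was 12 and 9 on days 7 and 8, 5 on day 10 and no peak on day 12. The second, in the promoter class at chr7:46673152-46673596 and 0.837 kb from the start of Tph1, a tryptophan hydroxylase, had 29 and 22 reads on days 7 and 8 and 10 and 13 with NanogN70, with no peak in either path from day 10. A region in an intron of Myocd, the smooth muscle coactivator, at chr11:65211095-65211743, had 23 and 16 reads on days 7 and 8 and likewise no peak in either path from day 10. In the intron of Mtss1 at chr15:59029836-59030482, by contrast, the region was lost with Nanog (23 and 18 reads on days 7 and 8) and kept peaks with NanogN70 (37, 20, 16 and 17 reads). Others of the 10 were near Dock11, Arhgap18, Cops8, Ctif and Cpeb4, with 10 to 23 reads on day 7.

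Promoter shares of gained and lost regions were below those of constantly open regions. Within 2 kb of an annotated start site lay 234 gained regions (20.1%, 17.8% to 22.5%) and 2106 lost regions (17.7%, 17.1% to 18.4%), against 28.7% of all compared and 59.3% of those open in all 4 libraries. With regions built from summits the shares were 34.4% of gained and 20% of lost regions, and with equal peak numbers 25.2% and 18%, so the distance between the sets depends on the setting. Of the gained regions 39.9% were in introns, 35.1% between genes and 4.9% in exons. The median distance to a protein-coding start site was 28100 bp for gained, 23000 bp for lost and 16000 bp for all compared regions. Gained regions were wider (median 573 bp against 385 bp), a merged width over 20 libraries, and had more G and C in the 201 bases around the summit (median 51.7% against 48.3%, and 50.2% over all compared).

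SOX matches were more frequent at the summits of gained regions and AP-1 matches at those of lost regions. A SOX word (ACAATGG or ACAAAGG, both strands, within 25 bases) was found in 73 of 1164 gained regions on assembled chromosomes (6.27%, 4.95% to 7.82%), in 1.79% of lost regions and in 1.99% of all compared. AP-1 (TGANTCA) was found in 19 gained regions (1.63%, 0.986% to 2.54%), in 7.74% of lost regions and in 5.85% of all compared. The SOX share was similar in ESC-only gained regions (6.41%), in those open in neither endpoint (6.53%) and in those open in MEFs (5.52%), and it was 4.7% in gained regions within 2 kb of a start site and 6.67% in those farther away, where all compared regions had 2.21%. It was 7.22% (5.63% to 9.1%) in gained regions open with NanogN70 on both later days and 3.64% (1.0% to 9.05%) in the 110 open on neither. It was lowest without the day 12 library (3.26%) and without that of day 8 (4.38%), and 5.03% among gained regions that scored at least 100 on both days.

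AP-1 matches differed among the lost regions by endpoint state. They were in 17.8% of MEF-only lost regions (16.4% to 19.3%) and in 2.26% of ESC-only ones. The 110 gained regions with no NanogN70 peak on days 10 and 12 had an AP-1 match in 5.45% (2.03% to 11.5%) and a TEAD match in 5.45%, 6 regions each, against 1.09% and 0.985% in those open on both days and 5.85% and 0.917% of all regions compared. The AP-1 share of the 110 was thus at that of all regions compared. One region without a later NanogN70 peak, itself with no match, lies at chr14:57760188-57761032, 2.22 kb from the start of Lats2, a kinase of the Hippo pathway, and had 61 reads in MEFs, 24 on day 0, none on days 1 to 8, 7 and 6 on days 10 and 12, and none with NanogN70 after day 0. TEAD was in 1.37% of gained and 0.708% of lost regions. Matches for OCT (ATGCAAAT, 0.515% and 0.792%), KLF (GGGCGTGG, 0.172% and 0.354%), STAT (TTCCNGGAA, 0.0859% and 0.219%), RUNX (TGTGGTT, 1.03% and 1.63%), CEBP (TTGCNNAA, 1.55% and 2.29%), ETS (CCGGAAGT, 0.0859% and 0.0674%), CTCF (GCGCCCCCT, 0.0859% and 0.278%) and TCF/LEF (CTTTGAA or CTTTGAT, 1.63% and 1.58%) were rare in gained and lost regions. ESRRB (TCAAGGTCA) was in none of the gained regions, which allows a share of up to 0.258% by the limit of 3 counts and 0.316% by the two-sided 95% Clopper-Pearson interval. The match is to letters only and does not show that a factor was bound.

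**Figure D5:**
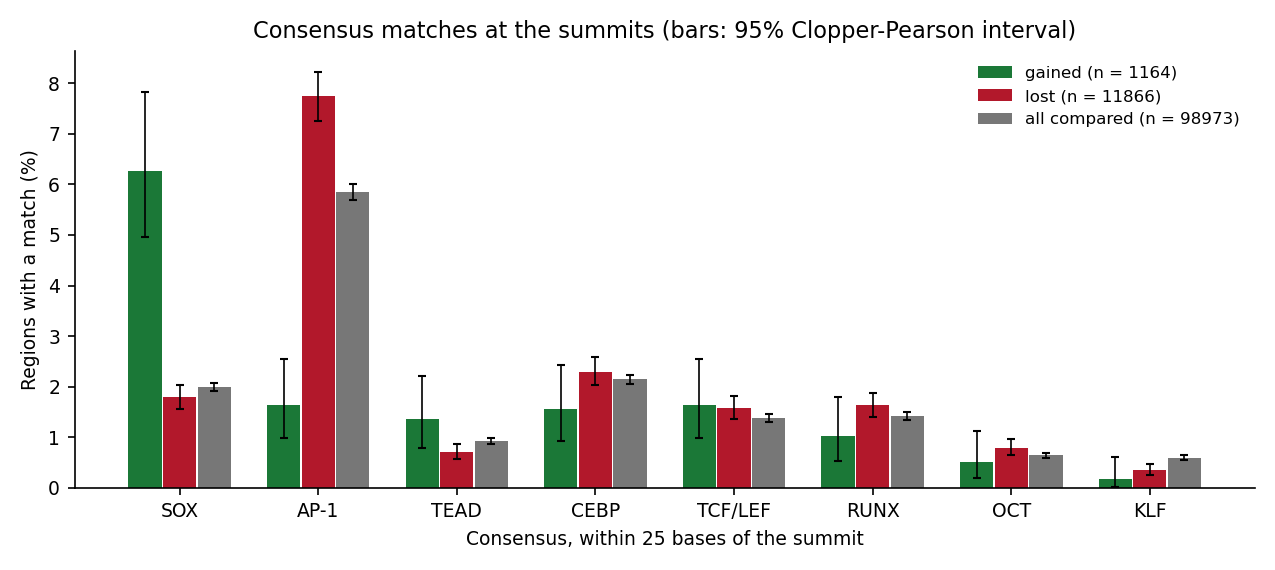
Share of gained, lost and all compared regions with a consensus match within 25 bases of the summit, in percent, with Clopper-Pearson intervals at 95% (counting error alone). SOX is at 6.27% in gained and 1.79% in lost regions, and AP-1 at 1.63% and 7.74%.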

How the data were processed

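ATAC-seq was analysed in 20 mouse libraries. Per the labels, the authors used Trim Galore 0.6.4, Bowtie2 2.4.5 with mm10, SAMtools 1.16.1 and MACS 1.4.2, and peaks were called in each library without a named input control. The deposited peak score is the negative log10 of the p-value times 10. The deposited summit signal is the read pileup, not scaled to depth. Depth is unknown.

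Here, peaks overlapping by at least 1 bp were merged over all libraries and a region was open in a library with a peak. Groups came from titles. Genes and start sites were from GENCODE M21, sequence from RefSeq GRCm38, and all 21 chromosomes lay within its lengths. Each of 12 motifs was searched on both strands. Python 3.11.15 with pandas 2.3.3, numpy 2.4.6 and scipy 1.17.1 was used, and the calls were tested on simulated peaks. Shares have exact (Clopper-Pearson) intervals. Differences between days were tested by two-sided exact permutation.

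The named regions were the 10 gained and 10 lost with the highest score in the weaker of their 2 libraries, the first 5 per endpoint state, the 5 genes with most regions, and up to 4 genes a list. Further neural regions and counts per list gene were named after their values were seen, and 2 regions are not reported here. The members and the 18 gene lists were chosen with earlier results of these data known. Alternatives were a score of at least 100, 44126 top-scoring peaks per library, regions from summits extended by 100 bp, regions merged over 4 libraries, protein-coding start sites, a correction for shared regions and leaving out each library.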

Additional observations from a re-analysis of the deposited data

How the results depend on the processing

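The number of gained regions was 387 and that of lost regions 7706 with a minimum score of 100, and 1969 and 3217 with equal numbers of top-scoring peaks. Without single libraries the calls rest on 3 libraries by construction, and they ranged from 1792 to 8095 gained (1792 without day 7, 2245 without day 8, 8095 without day 10, 3254 without day 12) and from 15098 to 32044 lost (24358 without day 7, 32044 without day 8, 19638 without day 10, 15098 without day 12). The share of gained regions open in ESCs was 26.7% with equal peak numbers, and 23.7% (without day 12) to 45.0% without single libraries. The share of lost regions open in MEFs was 51.6% and 21.9% under those settings, and 28.9% (without day 8) to 53.7%. The share of gained regions open in NanogN70+Oct4 on both later days was 89.4%, 68.8% and, with regions from summits, 62.6%, and 30.9% to 75%. Without single libraries, the later minus early difference in the NanogN70 path was 7.67 to 31.2 points at gained and -36.5 to -16.4 at lost regions. When each share was divided by that at shared regions, the difference was 41.3 at gained and -30.8 at lost regions. Promoter shares were 25.2% (equal peak numbers), 34.4% (summits) and 12.5% (protein-coding start sites) for gained regions, and 22.5% (score of 100), 20% (summits), 19.5% (merged over 4 libraries) and 12.0% (protein-coding) for lost regions, and 18.1% to 25.6% and 16.2% to 19.6% without single libraries. The ESC-only difference was 1.3 with equal peak numbers and 8.58 after subtraction of the shared regions, where the MEF-only difference was 3.49, and both reversed their direction. Without single libraries they were -4.56 to -2.42 and -10.9 to -6.25. With equal peak numbers the MEF and ESC states were also defined from fewer peaks. The cause of the other changes was not tested. The settings for the neural list and the SOX share were chosen after seeing the data. No analysis paired by replicate number was possible because the labels give replicate numbers to the ESC libraries alone, so that no number pairs libraries across groups. The exchange of paths in the report matches libraries by day. Later libraries yield fewer peaks, which limits the reading of lost regions, and regions under the threshold of 50 are not seen.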
